A study of Mus musculus with 6 samples.

Results

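The receptors for the classical neurotransmitters were examined in the mouse hypothalamus: the GABA-A, glutamate, acetylcholine, serotonin, dopamine and histamine receptors. Members were the probes whose gene symbol in the platform annotation followed the naming of these receptor families. There were 54 such probes for 54 genes, among 8726 genes named by 1 symbol and 10080 spots on the array, and all 54 were found by Entrez Gene identifier in the RefSeq gene table for GRCm38.p6. They comprised 12 probes for GABA-A subunits, 13 for glutamate receptors, 13 for acetylcholine receptors, 11 for serotonin receptors, 3 for dopamine receptors and 2 for histamine receptors. One symbol captured by the naming rule, Grid2ip, belongs to a protein that binds the delta glutamate receptor and is not itself a receptor. GABA-B, glycine and adrenergic receptors were not analysed here, because no probe with 1 gene symbol matched them.

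The tissue was whole hypothalamus of male DBA/1 mice, a strain susceptible to collagen-induced arthritis, which were 8 weeks old when injected. The collagen mice received 100 ul of type II collagen together with 100 ul of complete Freund's adjuvant, and the control mice received 200 ul of adjuvant with no collagen. The effects of collagen and of adjuvant amount therefore cannot be told apart. Both conditions were given lipopolysaccharide (LPS), a bacterial cell wall component, at day 24, so each comparison is of collagen with control among LPS-treated mice. Each of 3 biological replicates was a pair of RNA samples set against each other on 2 in-house printed 2-colour arrays with the dyes swapped. How many mice made up a replicate is not stated in the labels. The p-values therefore reflect only how far these samples vary, which may be technical. In bulk tissue, fewer cells of a type and less RNA per cell cannot be told apart.

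Neurotransmitters act through 2 kinds of receptor. Ligand-gated channels, such as the GABA-A, AMPA, NMDA, kainate and nicotinic receptors, are assembled from several subunits and pass ions within milliseconds of binding. Receptors coupled to G proteins, such as the muscarinic, dopamine, histamine and most serotonin receptors, act more slowly through second messengers. In the hypothalamus GABA and glutamate carry most of the fast transmission, and serotonin, dopamine and histamine inputs modulate feeding, hormone release, arousal and body temperature.

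The channels of a spot are called A and B in the deposited files, and A was read as Cy3 and B as Cy5 from the order of the labels, which is not stated outright. Were A the Cy5 channel, every collagen direction below would turn. Between 4650 and 8562 spots gave a ratio on an array, and the receptors gave 25 to 46. After all ratios were turned to collagen over control, the swapped arrays of a replicate correlated negatively over the 2316 probes measured on all 6 arrays, at -0.23, -0.64 and -0.32 in replicates 1, 2 and 3. Different replicates with collagen in the same dye correlated positively, at 0.35 to 0.57 in Cy5 and 0.13 to 0.33 in Cy3. Most of the shared pattern of single arrays thus went with the channel and not with the labelled condition, and the averages of the swapped pairs correlated at only -0.14 to 0.04 between replicates. The replicate 1 array with collagen in Cy3 was the most scattered, with a standard deviation of log2 ratios of 1.12, against 0.34 to 0.57 on the other 5. For the tested receptors, means with replicates left out are given beside the value or among the alternatives at the end.

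The receptors were detected about as often as other probes. A ratio requires both channels of a spot to have been kept by the authors' quantification, and 13 of 54 receptor probes had one on all 6 arrays (24.1%), against 23.0% of all 10080 probes. On at least 4 arrays there were 27 receptor probes (50%), against 46.2% of all probes. Another 25 receptors had a ratio on 1 to 3 arrays. The remaining 2, Gabra3 and Drd3, had none, where 4.39% of all probes had none. Both of these probes were kept on 6 of 6 arrays in channel A and on 0 in channel B.

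Channel B set the limit throughout. Receptor spots were kept in 318 of 324 readings in channel A (98.1%) and in 187 of 324 in channel B (57.7%), beside 98.1% and 56.6% over all probes. Divided by condition and not by channel, 246 of 324 collagen readings were kept (75.9%), against 259 of 324 control readings (79.9%). The shares over all probes were 75.3% for collagen and 79.5% for control, close to those of the receptors. Of the 54, 7 were kept on more collagen arrays, 18 on more control arrays and 29 on as many of each. Over all 10080 probes the counts were 1337, 3336 and 5407, a similar split.

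**Figure D1:**
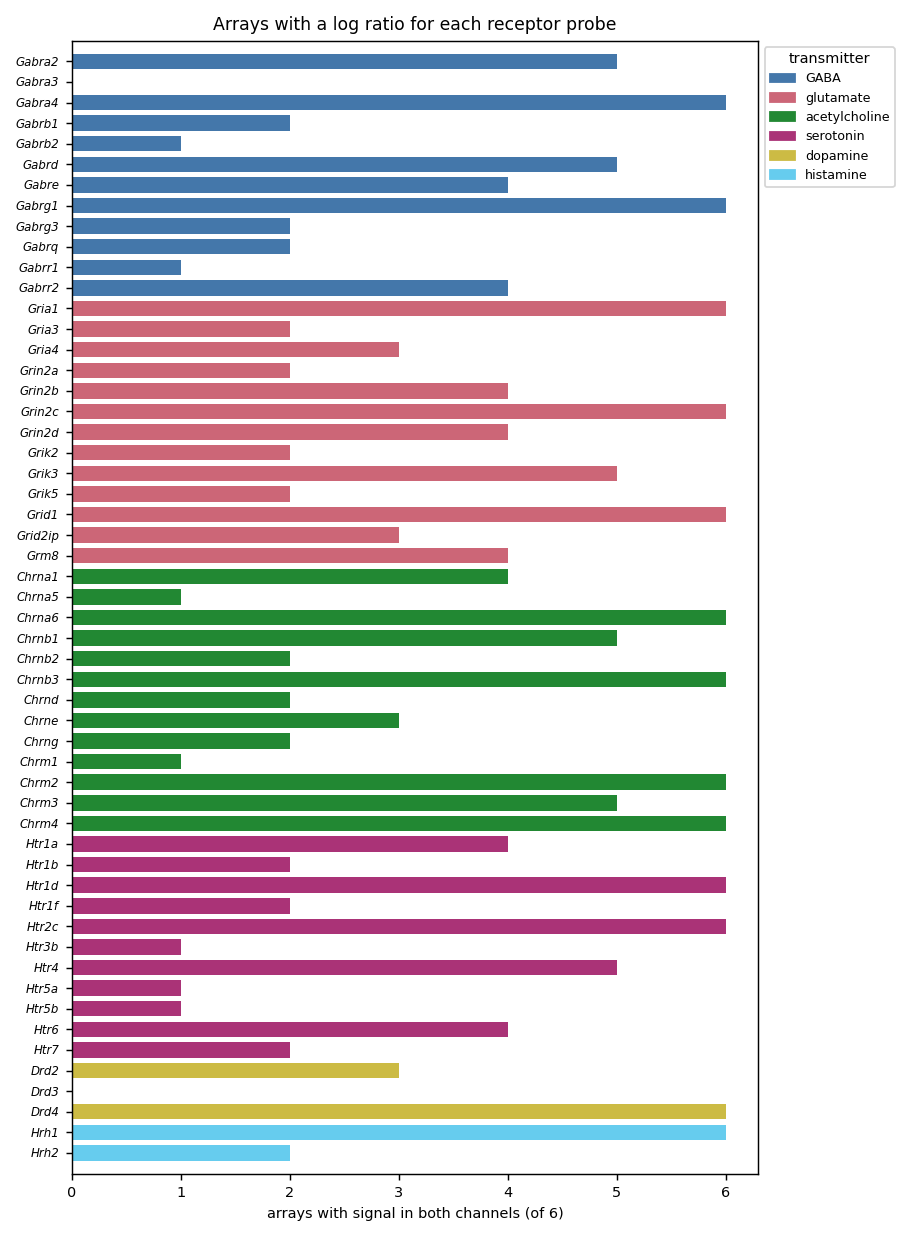
Number of the 6 arrays on which each of the 54 receptor probes had signal in both channels, by transmitter. The 13 bars that reach 6 are spread over all 6 transmitters, and Gabra3 and Drd3 have no bar because they had a ratio on 0 arrays.

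Signal was expressed as the foreground of a spot over its local background, taking the highest of the repeat scans, and probes were not ranked against each other because probe sequences and lengths were not compared. Many receptor probes were dim. Of 54, 24 never exceeded 3 times their background in either condition on any array, 18 exceeded 5 times on some array and 7 exceeded 10 times. The same shares over all probes were not computed, so dimness was not shown to set the receptors apart. Only Htr2c exceeded 2 times the background in both channels on all 6 arrays, as did 4.75% of all probes. For Htr2c, the serotonin receptor of hypothalamic melanocortin neurons that restrains feeding, collagen signal was 49.0, 3.49, 8.43, 7.59, 4.79 and 4.02 times background. Control signal on the same arrays was 16.4, 12.9, 6.88, 24.3, 2.08 and 5.09 times background. These 6 values run through replicates 1 to 3, with collagen in Cy5 before collagen in Cy3 in each, and the same order holds for every set of 6 values below. The conditions overlapped, and the condition in channel B, that is collagen where it was in Cy5, had the higher value on all 6 arrays. Such signals are not normalised, so conditions were compared only through the log2 ratios that follow.

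**Figure D2:**
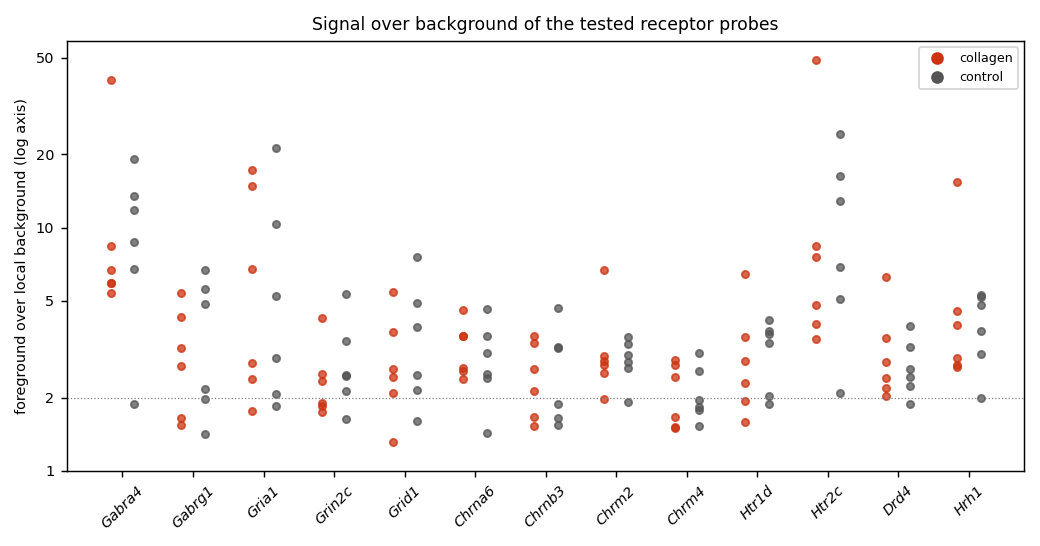
Foreground over local background (log axis) of the 13 receptor probes measured in both channels of all 6 arrays. Each point is 1 array, with collagen on the left and control on the right of each gene and a dotted line at 2 times background, and the conditions overlap for all 13 genes.

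None of the receptors passed the test. Log2 ratios were normalised within each printing block, the swapped arrays were averaged, and the 3 replicate means were tested against 0 with limma. Of the 2316 probes tested, 0 had an adjusted p under 0.05 (0%), and so did 0 of the 13 receptors, the lowest adjusted p being 0.957 for both. At an unadjusted p under 0.05 there was 1 receptor, Grid1, among 29 probes (1.25%), of which 12 were higher with collagen (0.518%) and 17, Grid1 included, lower (0.734%). The median log2 ratio was 0.04 over the 13 receptors and -0.03 over all tested probes. The 95% interval of a receptor extended 0.25 to 0.68 on either side of its mean, with a median of 0.32, the same as over all tested probes. Changes inside those intervals were not detectable with 3 replicates. The intervals are not adjusted for the number of probes tested, so larger changes could also miss the adjusted threshold. Grid1 had an interval that did not reach 0 and still missed it.

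**Figure D3:**
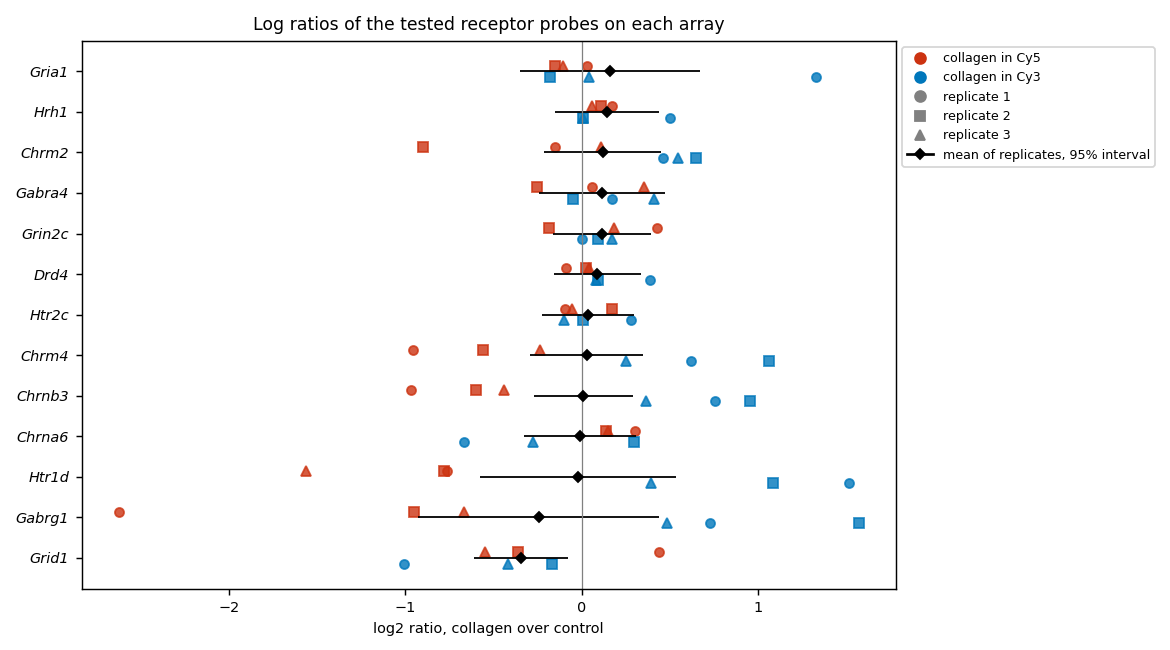
Log2 ratio of collagen over control for each tested receptor probe. Points are single arrays, coloured by the dye of the collagen sample and shaped by replicate, and black diamonds are means of 3 replicates with their 95% intervals. For Chrm4, Chrnb3, Htr1d and Gabrg1 the arrays with collagen in Cy5 lie below 0 and those with collagen in Cy3 above it, and Grid1 is the gene whose interval does not reach 0.

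GABA-A receptors are pentameric chloride channels that carry fast inhibition. Of the 12 subunits 2 were tested, 1 with a mean above 0 and 1 below. Gabra4 (Entrez Gene 14397), an alpha subunit of receptors outside the synapse that carry tonic inhibition, had log2 ratios of 0.06, 0.17, -0.25, -0.05, 0.35 and 0.41. Replicate 3 lay above 0 on both arrays and replicate 2 below 0 on both. Its mean was 0.12 ± 0.14 (SE, n = 3; limma adjusted p = 0.957), its 95% interval ran from -0.24 to 0.47, and without replicate 3 it was -0.02.

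Gabrg1 (Entrez Gene 14405), a gamma subunit found in the hypothalamus and in glia, had log2 ratios of -2.63, 0.73, -0.95, 1.57, -0.67 and 0.48. The 3 arrays with collagen in Cy5 were all below 0 and the 3 with collagen in Cy3 all above. The mean was -0.24 ± 0.26 (SE, n = 3; limma adjusted p = 0.957) with an interval of -0.93 to 0.44, and it was 0.11 without replicate 1. It was also above 0 with other normalisations, at 0.18 with loess over the whole array and 0.12 with median centring.

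A further 4 GABA-A subunits had ratios on 4 or 5 arrays. Gabra2, a synaptic alpha subunit, was below 0 on all 5 of its arrays, at -0.81, -0.24, -0.12, -1.10 and -0.03, and the replicate 1 array with collagen in Cy3 gave no ratio. When probes with at least 2 complete replicates were also tested, 22 receptors entered and 0 were called, and Gabra2 stood at -0.37 ± 0.17 (SE, n = 2; limma unadjusted p = 0.0923). Gabrd, the delta subunit of receptors outside the synapse, ranged from -0.74 to 0.04 on 5 arrays and was below 0 on 4. Gabre ranged from -0.62 to 0.15 on 4 arrays, and Gabrr2, a retinal-type rho subunit, from -0.69 to 1.01 on 4. Gabrb1, Gabrg3 and Gabrq had a ratio on 2 arrays, Gabrb2 and Gabrr1 on 1, and Gabra3 on none. The beta subunits, which most GABA-A receptors need, were thus too weakly measured to compare.

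Glutamate receptors carry fast excitation. Of the 13 probes, 3 were tested, 2 with a mean above 0 and 1 below. Gria1 (Entrez Gene 14799), a pore-forming AMPA subunit, had log2 ratios of 0.03, 1.33, -0.15, -0.18, -0.11 and 0.04. The value of 1.33 came from the scattered replicate 1 array and the other 5 lay within 0.18 of 0. The mean of 0.16 ± 0.19 (SE, n = 3; limma adjusted p = 0.957) was the highest of the tested receptors, its interval ran from -0.35 to 0.67, and without replicate 1 it was -0.10. Collagen signal for Gria1 was 1.75 to 17.3 times background and control signal 1.84 to 21.3. The other AMPA subunits were on 2 arrays (Gria3) and 3 arrays (Gria4).

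Grin2c (Entrez Gene 14813), an NMDA receptor subunit best known from cerebellar granule cells, had log2 ratios of 0.43, 0.0021, -0.18, 0.09, 0.18 and 0.17. It lay above 0 on 5 of 6 arrays with a mean of 0.11 ± 0.11 (SE, n = 3; limma adjusted p = 0.957) and an interval of -0.16 to 0.39. It was 0.064 without replicate 1 and -0.25 with median centring, so its direction depended on the normalisation. Grin2b, an NMDA subunit abundant in the forebrain, ranged from -0.51 to 1.61 on 4 arrays, and its highest value was again on the scattered array. Grin2d ranged from -1.59 to 0.33 on 4 arrays, with its lowest value on that same array. Grin2a had a ratio on 2 arrays.

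Grid1 (Entrez Gene 14803), the delta 1 receptor, which organises synapses with cerebellins and neurexins, showed the lowest mean of the 13. Its log2 ratios were 0.44, -1.01, -0.36, -0.17, -0.55 and -0.42, so it was below 0 on 5 of 6 arrays and above 0 on the first. The lowest value, -1.01, came from the scattered replicate 1 array, and its swapped partner was at 0.44. Averaging the swapped arrays gave -0.29, -0.27 and -0.48 in replicates 1 to 3. The mean was -0.34 ± 0.10 (SE, n = 3) with an interval of -0.61 to -0.08, an unadjusted p of 0.0223 and a limma adjusted p of 0.957. It was below 0 under all 14 alternative settings, at -0.60 to -0.15, and none of them brought its adjusted p under 0.05. Its unadjusted p was over 0.05 under 6 of them: 0.0880 with the replicate block, 0.0884 without replicate 2, 0.0945 without replicate 3, 0.0727 in the authors' table, and 0.500 and 0.0667 with collagen in Cy5 only and in Cy3 only. Collagen signal for Grid1 ran from 1.32 to 5.41 times background and control signal from 1.60 to 7.59. Cbln1, the secreted partner of the delta receptors, had ratios in replicates 1 and 2, at -0.59 and -0.03, and was not tested. Its values, like those of Htr2c, Chrm4, Chrnb3, Grin2c, Gabra2, Htr1b, Hrh2 and Grik5 on each array, were chosen for display after they were seen. So were the ranges of Drd2 and Grid2ip. Grid2ip ranged from -0.04 to 0.17 on 3 arrays.

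The kainate receptors and the only metabotropic glutamate receptor were not tested. Grik3 ranged from -0.32 to 0.42 on 5 arrays. Grik2 and Grik5 had ratios on 2 arrays each. The median signal of Grik5 was 5.73 times background in collagen and 2.55 in control, each over 4 arrays that were not the same 4. On the 2 arrays kept for both, those of replicate 3, its log2 ratios were 0.03 and -0.06. Grm8, a presynaptic receptor that reduces transmitter release, ranged from -0.69 to 1.00 on 4 arrays and was below 0 on 3.

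Acetylcholine acts on nicotinic channels and on muscarinic receptors, and 4 of the 13 probes were tested, 3 with a mean above 0 and 1 below. Chrm2 (Entrez Gene 243764), a muscarinic receptor that inhibits adenylyl cyclase, had log2 ratios of -0.15, 0.46, -0.90, 0.65, 0.11 and 0.55. All arrays with collagen in Cy3 were above 0, and 2 of 3 with collagen in Cy5 were below. Its mean was 0.12 ± 0.13 (SE, n = 3; limma adjusted p = 0.957) with an interval of -0.21 to 0.45, it was 0.015 without replicate 3 and 0.24 without replicate 2, and it was -0.31 from the arrays with collagen in Cy5 alone. Chrm4 (Entrez Gene 12672), of the same signalling type, read -0.96, 0.62, -0.56, 1.06, -0.24 and 0.25. It split completely by dye, and its mean was 0.03 ± 0.12 (SE, n = 3). Chrm3, which signals through Gq, ranged from -0.26 to 0.22 on 5 arrays, and Chrm1 had 1 ratio.

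Chrna6 (Entrez Gene 11440) and Chrnb3 (Entrez Gene 108043) encode nicotinic subunits that assemble together in midbrain dopamine neurons. Chrna6 had log2 ratios of 0.30, -0.67, 0.14, 0.30, 0.15 and -0.28, and its mean was -0.01 ± 0.12 (SE, n = 3; limma adjusted p = 0.992) with an interval of -0.33 to 0.31. Chrnb3 read -0.97, 0.75, -0.60, 0.95, -0.44 and 0.36, a complete split by dye, with a mean of 0.0093 ± 0.11 (SE, n = 3). Over single arrays the pair differed, since Chrna6 was above 0 on every array with collagen in Cy5 and Chrnb3 below 0 on each. Averaging the swapped arrays gave -0.18, 0.22 and -0.06 for Chrna6 in the successive replicates. For Chrnb3 it gave -0.11, 0.18 and -0.04, the same sign as Chrna6 in each replicate. Whether the pair follow each other was not tested.

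The platform also carried all of the muscle-type nicotinic subunits, which form the receptor of the neuromuscular junction. Chrna1 ranged from -0.14 to 0.23 on 4 arrays and Chrnb1 from -1.06 to 1.28 on 5, while Chrne had a ratio on 3 arrays and Chrnd and Chrng on 2 each. The neuronal subunits Chrnb2, part of the main brain nicotinic receptor, and Chrna5 had ratios on 2 arrays and 1 array.

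Of the 11 serotonin receptor probes 2 were tested, 1 with a mean above 0 and 1 below. The log2 ratios of Htr2c (Entrez Gene 15560) were -0.09, 0.28, 0.17, 0.0085, -0.05 and -0.10. All 6 stayed within 0.28 of 0, with 3 above and 3 below. The mean was 0.04 ± 0.10 (SE, n = 3; limma adjusted p = 0.982) and the interval ran from -0.22 to 0.30. Without replicate 1 the mean was 0.0070, and without replicate 3 it was 0.092. This was the receptor probe whose signal exceeded 2 times background in both channels on every array.

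Htr1d (Entrez Gene 15552), an inhibitory receptor on nerve terminals, had log2 ratios of -0.77, 1.52, -0.78, 1.08, -1.57 and 0.39. It split completely by dye, and the swapped pairs averaged to -0.02 ± 0.21 (SE, n = 3; limma adjusted p = 0.992) with an interval of -0.58 to 0.53. Htr4, which stimulates adenylyl cyclase, ranged from -0.05 to 0.42 on 5 arrays and was above 0 on 4. Htr1a, the inhibitory receptor that also serves as an autoreceptor, ranged from -0.68 to 0.85 on 4 arrays, and Htr6 from -0.89 to 1.62 on 4. Htr1b had ratios of 2.23 and 1.06 on its 2 arrays, the first of them on the scattered array with control signal at 1.20 times background. Htr1f and Htr7 had ratios on 2 arrays, and Htr3b, the serotonin-gated channel subunit, Htr5a and Htr5b on 1.

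Drd4 (Entrez Gene 13491), a dopamine receptor that inhibits adenylyl cyclase, had log2 ratios of -0.09, 0.39, 0.02, 0.09, 0.04 and 0.08. It was above 0 on 5 of 6 arrays, and its mean was 0.09 ± 0.09 (SE, n = 3; limma adjusted p = 0.957) with an interval of -0.16 to 0.34, and it was 0.059 without replicate 1. Drd2, the receptor through which dopamine restrains prolactin release, had ratios on 3 arrays from -0.03 to 0.92, and Drd3 had none.

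Hrh1 (Entrez Gene 15465), the excitatory histamine receptor that mediates arousal, was the only tested receptor with the same sign on all 6 arrays, as for 2.07% of all tested probes. Its log2 ratios were 0.17, 0.50, 0.11, 0.0096, 0.06 and 0.0067. Every array was above 0, but 2 of them by 0.01 or less, and the highest was on the scattered replicate 1 array. The mean was 0.14 ± 0.11 (SE, n = 3; limma adjusted p = 0.957) with an interval of -0.15 to 0.44, it was 0.05 without replicate 1, and loess over the whole array turned it to -0.09. Collagen signal for Hrh1 was 2.68 to 15.5 times background and control signal 1.99 to 5.31. Hrh2 had ratios of -0.11 and -0.0014 on 2 arrays. Hdc, which makes histamine, was at 0.07 ± 0.14 (SE, n = 3).

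The offset between channels was larger for several receptors than any collagen ratio. Before turning, the ratio of channel B over channel A had the same sign on all 6 arrays for 4 of the 13 receptors (30.8%), all of them weaker in B, beside 14.6% of the tested probes in either direction and 6.35% lower in channel B. Htr1d was at -1.02 ± 0.10 (SE, n = 3; limma adjusted p = 0.0555), Gabrg1 at -1.17 ± 0.23 (adjusted p = 0.296), Chrnb3 at -0.68 ± 0.13 (adjusted p = 0.280) and Chrm4 at -0.61 ± 0.15 (adjusted p = 0.407). With limma 0 receptors and 9 of all probes (0.389%) had an adjusted p under 0.05 for this ratio, and at an unadjusted p under 0.05 there were 5 receptors and 247 probes (10.7%). Among the untested receptors Chrnb1 was lower in channel B on all 5 of its arrays, and Gabrr2 and Htr6 on all 4. In the mean of a swapped pair such an offset enters with opposite signs. If the dyes had not been swapped as labelled, this ratio and not the turned one would hold the difference between collagen and control. It would then hold that difference and the offset between channels together, and they could not be told apart. Whether the dyes were swapped as labelled was not tested.

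**Figure D4:**
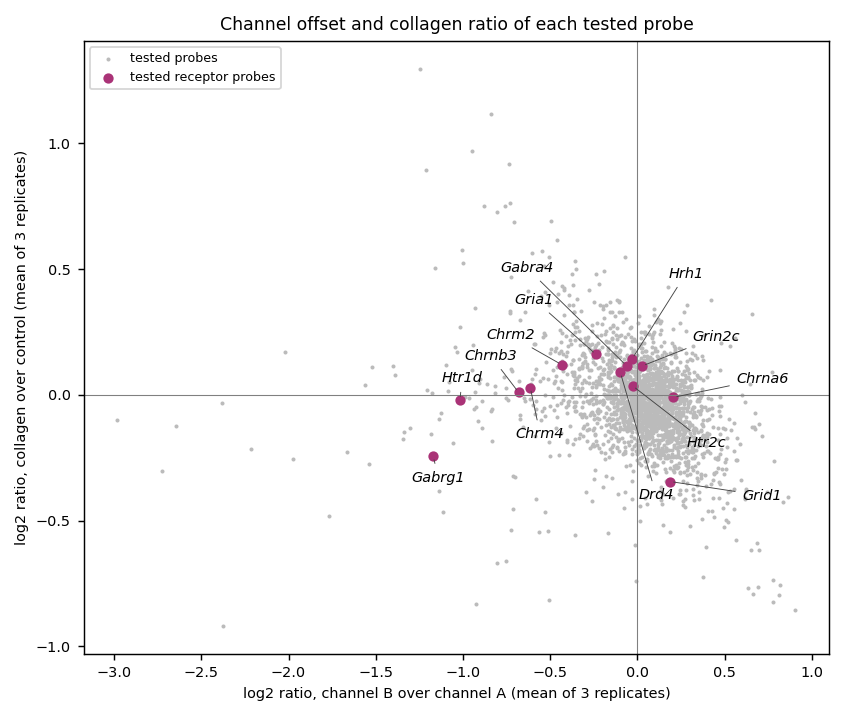
Mean log2 of channel B over channel A (horizontal) against mean log2 ratio of collagen over control (vertical) for the 2316 tested probes in grey and the 13 receptors in purple. Htr1d, Gabrg1, Chrnb3 and Chrm4 lie at -0.61 or below on the channel axis, while the 13 receptors span -0.34 to 0.16 on the collagen axis.

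The genes that make, move, break down or anchor these transmitters and receptors gave 0 calls in each list. Of 22 genes with a probe for glutamate synthesis, transport and scaffolds, 5 were tested and all 5 had means below 0 (median -0.08), beside 40.3% of all tested probes above 0. With loess over the whole array, with median centring or without replicate 3, 4 of the 5 were below 0. They ran from Cacng2, an auxiliary subunit that brings AMPA receptors to the synapse, at -0.28 ± 0.10 (SE, n = 3; unadjusted p = 0.0425, limma adjusted p = 0.957), to Neto2, an auxiliary subunit of kainate receptors, at -0.06 ± 0.10. The 3 replicate values of Cacng2 were -0.37, -0.15 and -0.34. Its unadjusted p was over 0.05 under 6 of the 12 alternatives that measured it, among them each omission of a replicate (0.0909, 0.0970 and 0.143), and reached 0.296 with collagen in Cy3 only.

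For GABA, 9 genes had a probe and 2 were tested. Genes of lists with fewer than 3 tested members are named here after their values were seen. Slc32a1, the vesicular transporter that loads GABA, was at 0.00072 ± 0.12, and Gabarapl2 at -0.15 ± 0.12 (SE, n = 3 each). For acetylcholine, 8 had a probe and 2 were tested, Rapsn, which clusters muscle nicotinic receptors, at 0.20 ± 0.26 and Lynx1, which restrains nicotinic receptors, at -0.14 ± 0.16. Replicates 1 to 3 gave 0.91, 0.04 and -0.35 for Rapsn and -0.49, -0.12 and 0.18 for Lynx1, so neither kept its sign. Slc6a9, a glycine transporter, was at 0.41 ± 0.27, with 1.17 in replicate 1 and 0.05 and 0.0026 in the others. It was 0.028 without replicate 1, and its direction turned to -0.0014 with median centring and -0.12 with collagen in Cy5 only. Of 10 monoamine genes with a probe, Hdc alone was tested. Among 6 tested G protein signalling genes 3 were above 0 and 3 below, from Gnaq at 0.12 ± 0.11 to Gna11 at -0.18 ± 0.13, and with median centring all 6 were below 0.

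Markers of the tissue were present, though most were weak. Of 16 hypothalamic genes listed 11 had a probe and 5 were tested, with none at 0 arrays. Pmch, the melanin-concentrating hormone precursor of the lateral hypothalamus, was the strongest, with a median collagen signal of 59.7 times background and a median control signal of 48.2. The other tested ones, Oxt, Gal, Gnrh1 and Cartpt, had medians of 2.52 to 9.12 over both conditions. The untested ones, Avp, Hcrt, Otp, Sim1, Sst and Trh, had medians of 1.86 to 2.64. Markers of neighbouring tissue were also detected: 4 of 6 thalamic and cortical genes with a probe and 1 of 2 striatal genes were tested, and 0 of 3 pituitary hormone genes. For other cell types, Kl of the choroid plexus was at -0.21 ± 0.12, Aldh1l1 of astrocytes at 0.05 ± 0.10 and Cd68 of microglia at -0.06 ± 0.13 (SE, n = 3 each). The oligodendrocyte genes Cldn11 and Mag were at 0.32 ± 0.11 and -0.14 ± 0.25. In replicates 1 to 3 Cldn11 was at 0.32, 0.16 and 0.47 and Mag at -0.83, 0.07 and 0.34. Their signs thus differed in replicate 1 alone, which holds the scattered array, and no direction was drawn for this cell type. None of the 5 general neuronal genes with a probe was tested, since they had ratios on 2 to 4 arrays, and endothelial genes were not analysed here. With limma 0 of the markers had an adjusted p under 0.05 and 1, Cldn11, an unadjusted p under it (0.0364). The part of other cells in the receptor ratios was not tested.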

How the data were processed

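Each deposited file gave, for every spot and channel, an intensity from which background had been subtracted, with the local background, spot area and a saturation factor (a fraction), per the file headers. A rejected channel was set to 0. For the quantification software, a name is not given in the sources used here. In the authors' deposited table each probe and array had a log ratio whose base and direction are not stated, treated as a score. Its column medians lay between -0.018 and 0.0015, and its columns correlated with the turned ratios at 0.671 to 0.906.

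Scanner rows were ordered by block and spot position to give the platform's probe numbers. Of 10080 probes, 9066 had 1 gene symbol, 12 several and 1002 none in that annotation, which is old. Log2 ratios of channel B over A were smoothed by loess (span 0.3) within each of 48 printing blocks and averaged over the 3 repeat scans, without saturated scans wherever an unsaturated one existed. Repeat scans correlated at 0.507 to 0.916. Ratios were turned to collagen over control, the 2 arrays of a replicate were averaged, and probes with a ratio on all 6 arrays and a foreground over 1.5 times local background, in either channel, on 4 or more arrays were tested. This gave 2316 probes. The test was limma 3.58.1 (lmFit and eBayes, two-sided, R 4.3.3) with Benjamini-Hochberg adjustment over all of them and a threshold of 0.05, and was tested on simulated data. Figures used matplotlib 3.10.9.

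Every tested receptor was named with its mean, those with the 4 highest and 4 lowest means, 1 sign on 6 arrays or an unadjusted p under 0.05 with values on every array, and the strongest tested receptor of any transmitter not yet named. The receptors and gene lists were chosen with earlier results of these data known. Replicate numbers from the titles pair the 2 arrays of the same RNA samples. Alternatives changed the normalisation, background correction, scans, filters, replicates, dye orientation, centring and block, or used the authors' table. The channel ratio was added after the data were seen. Array number limits the precision.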

Additional observations from a re-analysis of the deposited data

Results flagged for a closer look

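Gria1 had a log2 ratio of 1.33 on 1 array of replicate 1, that with collagen in Cy3, and the nearest of the other 5 arrays was at 0.04. On the same array Hrh1 stood at 0.50, with the nearest other value at 0.17. In both cases the gap to the nearest array, as a share of the whole range, exceeded the critical value for 6 values, which chance exceeds in about 1 in 20 sets. These sets were picked out by that rule, so the excess is a flag and not a test of them. The 6 values of a receptor also mix both dye orientations. That array also had the widest spread of log2 ratios, with a standard deviation of 1.12 against 0.57 on the next. In replicate 3, the array on which Cy3 carried the collagen sample had 8562 spots with a ratio, against 5940 on the next, and it supplied a ratio for 46 of the 54 receptors.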

How the results depend on the processing

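With limma, 0 probes and 0 receptors were called at the adjusted threshold under each of the 14 alternatives. The median of the tested receptors was 0.04, and it was -0.076 with collagen in Cy5 only and 0.19 with collagen in Cy3 only. It also turned with median centring, to -0.018, and was 0.0029 with loess over the whole array. With replicates left out it was 0.0079 to 0.064. The replicate block, which pairs the swapped arrays, left the median at 0.04 and changed no call at the adjusted threshold, with 0.935 as the lowest adjusted p of a receptor, while the unadjusted p of Grid1 moved to 0.0880. Requiring 2 times the background in both channels left 1 receptor measured on 6 arrays, and the first scan alone left 10. The 29 of 2316 probes at an unadjusted p under 0.05 became 53 with median centring, 44 with normexp and 19 without replicate 3. They became 249 with collagen in Cy5 only and 98 with collagen in Cy3 only, again of 2316. With collagen in a single dye the ratio also holds the offset between channels, so these counts are not of collagen alone. With at least 2 replicates 49 of 4027 probes had such a p, and 15 of 1539 did in the authors' table. Those settings tested other numbers of probes, so their counts cannot be set directly against the 29.

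Of the 13 receptors, all but Grid1 turned direction under some alternative, those with the highest means included. The settings with collagen in a single dye keep the offset between channels in the ratio, whereas swapped pairs carry it with opposite signs. Drd4 and Chrm2 turned under no setting other than collagen in Cy5 only. For turns under the other settings the cause was not tested. With loess over the whole array Chrnb3 was -0.068, Htr2c -0.078, Hrh1 -0.087, Chrm4 -0.11, Gabrg1 0.18 and Chrna6 0.23. With median centring, where all tested probes had a median of -0.11, Gabra4 was -0.018, Htr2c -0.086, Chrm4 -0.13, Chrnb3 -0.20, Grin2c -0.25, Gabrg1 0.12 and Chrna6 0.38. With collagen in Cy5 only Drd4 was -0.0088, Gria1 -0.076, Chrm2 -0.31, Chrm4 -0.59, Chrnb3 -0.67 and Chrna6 0.20, and with collagen in Cy3 only Gabrg1 was 0.93 and Htr1d 0.996. Chrna6 was 0.16 with normexp. With replicates centred Htr1d was 0.0072 and Chrna6 0.018, and in the authors' table, on its own scale, Grin2c was -0.011 and Htr1d 0.013. Leaving out replicates gave -0.099 to 0.32 for Gria1, -0.12 to 0.077 for Chrna6, -0.52 to 0.11 for Gabrg1, -0.074 to 0.068 for Chrnb3, -0.083 to 0.13 for Chrm4, -0.018 to 0.25 for Gabra4 and -0.22 to 0.26 for Htr1d. Without a change of sign it gave 0.015 to 0.24 for Chrm2, 0.0070 to 0.092 for Htr2c, 0.064 to 0.20 for Grin2c, 0.059 to 0.10 for Drd4 and 0.046 to 0.20 for Hrh1. Grid1 stayed below 0 throughout, at -0.38 to -0.28 with replicates left out.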
